A study of Homo sapiens with 4 samples.

Results

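The MYC and MAX network is described here in HepG2 cells, a human hepatocellular carcinoma line, after mock treatment or exposure to 20 µM pyridostatin (PDS) for 24 h. PDS is a small molecule that binds G-quadruplexes (G4), folds that guanine-rich DNA or RNA can take up. The network was taken as the 10 genes MYC, MYCL, MYCN, MAX, MXD1, MXD3, MXD4, MXI1, MNT and MGA, found by gene symbol among the 61906 gene identifiers of the expression table. Poly(A) RNA of 2 mock and 2 PDS libraries was sequenced, all from cells labelled wild type with no other agent in the labels, and the libraries are called Mock 1, Mock 2, PDS 1 and PDS 2. The design text describes the 2 libraries of a group as biological replicates, but names no separate cultures, and the p-values cover only the variation among these 4 libraries, which may be technical. A change per cell and a change in the number of cells cannot be told apart in such bulk RNA.

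MYC proteins are transcription factors of the basic helix-loop-helix leucine zipper class, and they bind the DNA element called the E-box only as a pair with MAX. The same MAX protein also pairs with MXD1, MXD3, MXD4, MXI1, MNT and MGA, which compete for it and, in general, repress what MYC activates. MYC drives ribosome production, nucleotide synthesis and cell growth, and in the liver it is known for its part in regeneration and in hepatocellular carcinoma. The MYC promoter is also a textbook site of G4 formation and a frequent target of G4 ligands.

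All values are in TPM (transcripts per 1000000, corrected for gene length), a share of each library, so levels can be compared between genes. Because the median gene lay lower after PDS by TPM as deposited (log2 fold change -0.55), each library was scaled to the median gene, and fold changes below are relative to that gene unless deposited TPM is named. Reads recovered from the table summed to 15573166 to 39217670 per library over the genes whose exon length was known directly. In these sums both PDS libraries lay below both mock libraries. The libraries had 35220 to 41442 genes above 0. All 10 hepatocyte markers were present, each with at least 117 TPM in its highest library. After PDS 8 of them were called higher and 2 lower, beside 16.2% and 13.0% of all genes tested. Of 6 fibroblast markers 1 reached a mean of 1 TPM, as did 2 of 3 endothelial and 1 of 5 blood markers, the last being LYZ, which was called higher after PDS and carried nearly all of its list's 5876 to 7207 TPM. The part of these markers in the results below was not tested.

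In the mock libraries MYC was the most abundant member by a wide margin, and MXD4 was the most abundant of the genes that compete with it. MYC stood at 188 TPM in Mock 1 and 200.3 TPM in Mock 2, and MXD4 at 47.2 and 49.8 TPM. MXI1 followed at 27.1 and 23.8 TPM and MAX itself at 15.6 and 16.3 TPM. MXD3 had 10.5 and 9.90 TPM, MNT 7.88 and 7.70 TPM, MXD1 6.08 and 5.44 TPM and MGA 4.84 and 5.55 TPM. The ranges of MXD1 and MGA overlapped, so their order was not resolved, whereas every other neighbouring pair was separated in both mock libraries. MYCL had 1.91 and 2.01 TPM, and MYCN 0.0606 and 0.0793 TPM, from 2 reads in each mock library. After PDS the order of the first 4 genes was as in the mock libraries, and the ranges of MXD3 and MXD1 overlapped.

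**Figure D1:**
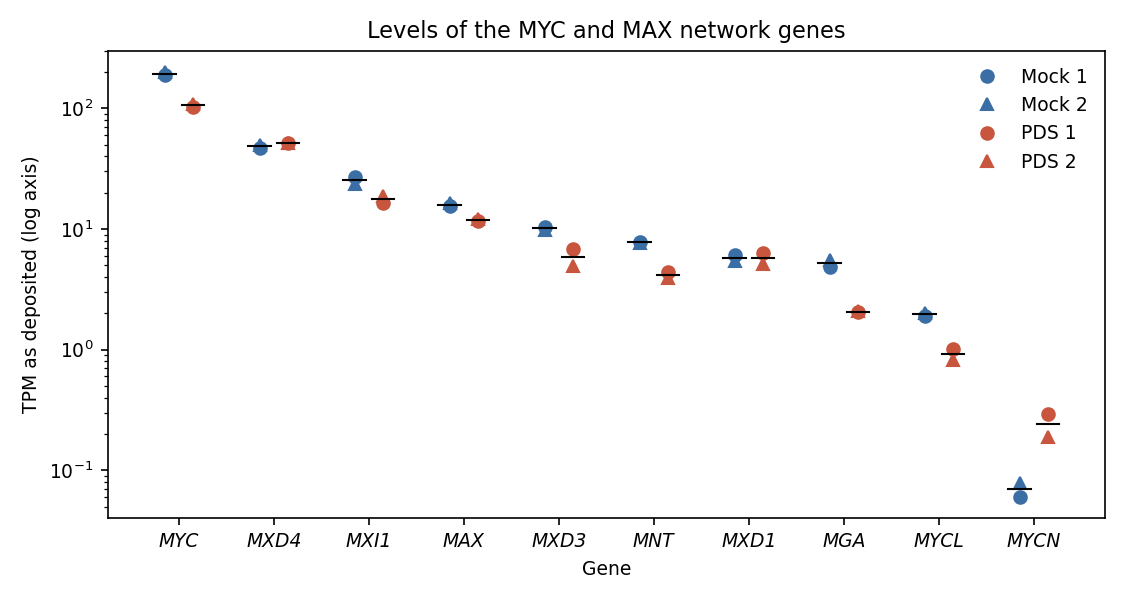
TPM as deposited (log axis) of the 10 network genes in each of the 4 libraries, with points for single libraries and a bar for the mean of 2. MYC lies above all other members in every library, MXD4 and MXD1 show no drop after PDS, and MYCN lies under 1 TPM throughout.

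Relative to the median gene, 2 members rose after PDS, MXD4 and MXD1, and 1 fell, MGA, out of 9 members with a mean of at least 1 TPM (limma, adjusted p under 0.05 over all 14686 genes tested). Over all genes tested, 16.2% were called higher and 13.0% lower, so 2 and 1 of 9 members are shares near the background. MYC, MAX, MYCL, MXD3, MXI1 and MNT did not pass. The scaled values of 3 members had both PDS libraries above both mock libraries, those of 4 had both below, and 2 overlapped, against 35.2% of all genes higher and 35.6% lower without overlap. The median log2 fold change of the 9 members was -0.14, against -0.00 over all genes tested. MYCN was measured but not tested, being under the minimum of 1 TPM. The smallest two-sided p that an exact permutation test can give here is 0.333, so each call rests on the variance that limma shares across genes.

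These counts depended on the scaling. With TPM as deposited, 7 of the 9 members were lower, none was higher, and MXD1 and MXD4 were not called, against 71.8% of all genes lower and 2.58% higher. With quantile normalization MXD1 and MXD4 were higher and MYC and MGA lower, against 12.6% of all genes higher and 16.0% lower. With limma's voom on the recovered reads, MXD1, MXD4 and MAX were higher and MYC and MGA lower, against 20.3% higher and 19.2% lower. Leaving out a library changed the calls of members and of all genes together. Of the 9 members, 0 passed without Mock 1 and 0 without Mock 2 (4 and 2 at an unadjusted p under 0.05), 1 without PDS 1 and 2 without PDS 2, beside 0, 0, 1098 and 2321 of all 14686 genes.

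**Figure D2:**
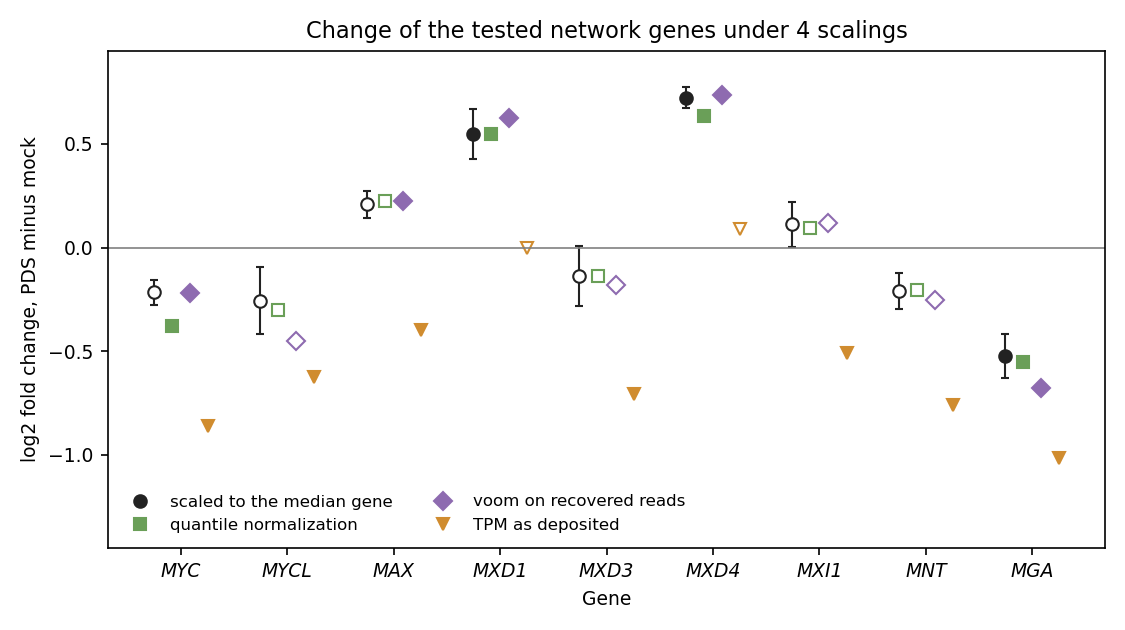
The log2 fold change (PDS minus mock) of the 9 tested members under 4 scalings, with bars of 1 SE for the scaling to the median gene and filled symbols for an adjusted p under 0.05. MXD4, MGA, MYC, MYCL, MXD3 and MNT keep their sign under all 4 scalings. With TPM as deposited MXD1 is at -0.00, MAX at -0.40 and MXI1 at -0.51, and the 7 genes called there are all lower.

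MYC (ENSG00000136997.21, chromosome 8) had fewer TPM after PDS but changed little more than the median gene. Its deposited level was 188 and 200.3 TPM in Mock 1 and Mock 2 and 103 and 109 TPM in PDS 1 and PDS 2, from 2934 to 10296 reads per library. Both PDS libraries lay below both mock libraries, also after scaling, where the means were 155 ± 3.62 and 133 ± 6.995 (SD, n = 2 each). The log2 fold change was -0.22 (SE 0.060), and the limma adjusted p of 0.0528 missed the threshold. MYC passed as lower with TPM as deposited (-0.86, adjusted p = 0.000398), with quantile normalization (-0.38, adjusted p = 0.0132), with voom (-0.22, adjusted p = 0.0152) and when genes under a mean of 5 TPM were left out (-0.22, adjusted p = 0.0242). Its log2 fold change was negative under all 12 alternatives, from -0.86 to -0.16, with adjusted p-values from 0.000398 to 0.237, and it passed under 4 of them. CASC11, on the opposite strand, shares 3.18% of MYC's exon bases and had at most 0.220 TPM.

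MYCL and MYCN, the lung and neuroblastoma paralogs of MYC, were scarce in these cells. MYCL (ENSG00000116990.11, chr1:39895428-39902256, minus strand) went from 1.91 and 2.01 TPM to 1.02 and 0.819 TPM. Its PDS libraries held 32 reads each, and its log2 fold change of -0.26 (SE 0.161) did not pass (limma adjusted p = 0.280). MYCN (ENSG00000134323.13, chr2:15940550-15947007, plus strand) had 0.0606 and 0.0793 TPM in the mock and 0.293 and 0.188 TPM in the PDS libraries. Those values stand for 2, 2, 5 and 4 reads, so no fold is given. In every library MYCL and MYCN together made up at most 0.650% of the network's summed TPM.

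MAX (ENSG00000125952.20, chr14:65006174-65102695, minus strand), the partner that all other members share, had 15.6 and 16.3 TPM in the mock and 11.7 and 12.1 TPM in the PDS libraries, lower in both PDS libraries as deposited. After scaling it was higher in both, at 12.7 ± 0.0816 in the mock and 14.9 ± 0.530 in the PDS libraries (SD, n = 2 each). The log2 fold change was 0.21 (SE 0.064, limma adjusted p = 0.0659), and -0.40 with TPM as deposited (adjusted p = 0.00377), so the direction of MAX depends on the scaling. With voom MAX passed as higher (0.23, adjusted p = 0.0357), and the adjusted p ran from 0.00377 to 0.752 over the 12 alternatives. FNTB, on the opposite strand, shares 13.1% of MAX's exon bases and had 4.60 to 7.85 TPM.

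MXD4 (ENSG00000123933.17, chr4:2247432-2262109, minus strand), a MAX partner and repressor found in many differentiated tissues, gave the clearest change of the network. It held 47.2 and 49.8 TPM in the mock and 51.6 and 51.7 TPM in the PDS libraries, and was thus one of the few members whose deposited TPM did not drop. Scaled to the median gene, its level was 38.7 ± 0.591 in the mock and 64.6 ± 0.891 in the PDS libraries (SD, n = 2 each). The PDS libraries lay far outside the mock range, with a log2 fold change of 0.72 (SE 0.052, limma adjusted p = 0.00549). It was called higher under 8 of 12 alternatives. The call was lost with TPM as deposited (0.09, adjusted p = 0.233), when all low genes were kept (0.58, adjusted p = 0.101), without Mock 1 (0.71, adjusted p = 0.0571) and without Mock 2 (0.74, adjusted p = 0.0846), and its sign was positive in each. The adjusted p ran from 3.44e-07 to 0.233 over the alternatives.

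MXD1 (ENSG00000059728.11, chr2:69897688-69942945, plus strand), a MAX-binding repressor linked to differentiation, was a low member that also rose. It had 6.08 and 5.44 TPM in the mock and 6.38 and 5.16 TPM in the PDS libraries, and these groups overlapped. After scaling the PDS libraries, at 7.91 and 6.51, lay above the mock libraries, at 4.93 and 4.27. Its log2 fold change was 0.55 (SE 0.122, limma adjusted p = 0.0298) relative to the median gene and -0.00 with TPM as deposited. The call was lost without Mock 1 (adjusted p = 0.109), without Mock 2 (adjusted p = 0.181) and without PDS 1 (adjusted p = 0.103), and over the 12 alternatives the adjusted p ran from 0.000698 to 0.993. SNRNP27, on the same strand, shares 3.73% of MXD1's exon bases and held 40.7 to 54.2 TPM.

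MXI1 and MXD3, which also pair with MAX as repressors, overlapped between the groups after scaling. MXI1 (ENSG00000119950.21, chr10:110207605-110287365, plus strand) had 27.1 and 23.8 TPM in the mock and 16.5 and 18.8 TPM in the PDS libraries. Its log2 fold change of 0.11 (SE 0.110, limma adjusted p = 0.483) turned to -0.51 with TPM as deposited. MXD3 (ENSG00000213347.11, chr5:177301461-177312757, minus strand), a member linked to proliferating cells, had 10.5 and 9.90 TPM in the mock and 6.84 and 4.97 TPM in the PDS libraries. Its log2 fold change was -0.14 (SE 0.144, limma adjusted p = 0.507), and PDS 1 and PDS 2 were farther apart than the mock libraries. MXD3 shares 24.2% of its exon bases with PRELID1 on the opposite strand, which held 203 to 315 TPM, and 19.5% with RAB24 on its own strand. The strand setting of the read counting was not given in the sources used here, so the level of MXD3 is uncertain.

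MNT (ENSG00000070444.15, chr17:2384073-2401104, minus strand), a broadly expressed antagonist of MYC, had 7.88 and 7.70 TPM in the mock and 4.43 and 3.96 TPM in the PDS libraries. It was lower in both PDS libraries before and after scaling, with a log2 fold change of -0.21 (SE 0.088) that did not pass (limma adjusted p = 0.135). With TPM as deposited it passed as lower (-0.76, adjusted p = 0.000990), the 1 of 12 alternatives where it did.

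MGA (ENSG00000174197.18, chr15:41621134-41773081, plus strand), the largest protein of the network and the scaffold of a Polycomb-type repressor complex, was the 1 member that fell. It had 4.84 and 5.55 TPM in the mock and 2.04 and 2.08 TPM in the PDS libraries, from 248 to 1136 reads. After scaling the means were 4.14 ± 0.304 and 2.58 ± 0.0590 (SD, n = 2 each), and the groups did not overlap. The log2 fold change was -0.52 (SE 0.106, limma adjusted p = 0.0242), with the pseudocount of 1 understating it. It was -1.02 with TPM as deposited (adjusted p = 0.000791), -0.55 with quantile normalization (adjusted p = 0.0255) and -0.68 with voom (adjusted p = 5.66e-05). Over 11 alternatives its adjusted p ran from 5.66e-05 to 0.164. The call was lost when any 1 library was left out, with log2 fold changes from -0.57 (without Mock 1) to -0.46 (without Mock 2). It was also lost when all low genes were kept (-0.63, limma adjusted p = 0.139) and with the replicate number as a block (limma adjusted p = 0.0536).

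Exon length moved with the changes over all genes. From the shortest to the longest decile of genes by exon length, the share called lower went from 5.59% to 28.3% and the share called higher from 19.4% to 3.61%. The course was not steady at the short end, with 2.73% lower in decile 2 and 26.4% higher in decile 3. MGA, with 20074 exon bases, lies in the longest decile, where the median log2 fold change was -0.19. It stood 0.34 below that median (log2 fold change minus median -0.34), with 8.45% of that decile's genes below it. MXD4 and MXD1 stood above the medians of their deciles by 0.82 and 0.60, higher than 98.7% and 97.0% of the genes there. MAX stood 0.26 above the median of its decile. The part of exon length in these results was not tested.

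The promoters of the members that passed and of MAX are printed to show where G-rich runs lie in front of genes that moved and of one that missed the threshold. Sequences are from RefSeq on GRCh38.p14, each the 250 bases before an annotated start and read 5′ to 3′ on the gene's strand. A G4 motif was defined as 4 or more runs of at least 3 G with loops of 1 to 7 bases of any letter, on either strand, and the E-box as CACGTG. Capitals mark these, with C runs where the G4 motif lies on the opposite strand. The windows are chr4:2262110-2262359 (minus) for MXD4, chr2:69914859-69915108 (plus) for MXD1, chr14:65101685-65101934 (minus) for MAX and chr15:41660155-41660404 (plus) for MGA.
MXD4 promoter: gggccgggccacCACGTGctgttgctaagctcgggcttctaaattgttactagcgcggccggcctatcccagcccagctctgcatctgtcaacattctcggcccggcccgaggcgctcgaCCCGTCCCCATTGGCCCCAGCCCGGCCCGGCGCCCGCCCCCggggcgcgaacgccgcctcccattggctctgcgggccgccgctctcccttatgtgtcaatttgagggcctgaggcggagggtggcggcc
MXD1 promoter: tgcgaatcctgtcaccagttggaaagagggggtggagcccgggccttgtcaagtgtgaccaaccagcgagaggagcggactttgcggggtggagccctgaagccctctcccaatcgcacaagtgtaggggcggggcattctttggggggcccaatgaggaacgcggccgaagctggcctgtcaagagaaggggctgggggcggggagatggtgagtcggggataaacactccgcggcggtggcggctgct
MAX promoter: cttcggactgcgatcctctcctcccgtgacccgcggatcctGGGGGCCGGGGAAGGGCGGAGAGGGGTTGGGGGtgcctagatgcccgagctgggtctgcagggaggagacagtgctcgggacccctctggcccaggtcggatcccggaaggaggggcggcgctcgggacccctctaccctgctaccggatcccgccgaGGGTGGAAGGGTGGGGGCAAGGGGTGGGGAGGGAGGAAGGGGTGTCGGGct
MGA promoter: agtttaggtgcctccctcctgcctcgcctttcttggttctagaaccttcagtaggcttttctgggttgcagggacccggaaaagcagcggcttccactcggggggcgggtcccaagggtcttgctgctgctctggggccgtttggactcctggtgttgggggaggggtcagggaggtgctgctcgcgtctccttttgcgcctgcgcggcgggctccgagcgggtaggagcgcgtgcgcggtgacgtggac

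MXD4 carried 1 G4 motif of 41 bases on the opposite strand, from -130 to -90 before the start, and an E-box at -238. MAX carried 2 G4 motifs on the printed strand, from -209 to -177 and from -51 to -3. The window printed is 1 of 2 RefSeq entries for MAX and 1 of 3 for MGA, chosen after the motifs were known. The other MAX entry, chr14:65102284-65102533, held 1 G4 motif on the opposite strand, and the other MGA entries held none. MXD1 and MGA, which moved in opposite directions, held neither motif in these windows. In windows of 300 bases, with 50 bases after the start added, 14 RefSeq entries of 9 members were searched, MYC being named only. A G4 motif lay in 6 entries of 4 genes, MYCL, MXD4, MXI1 and MAX, and an E-box in 2 entries, of MXD4 and MNT. Of all 35116 promoters of that length 8778 held the G4 motif (24.997%) and 7.26% the E-box. Both called and uncalled members thus carried the motif, and a match is a description of the letters, not a bound site.

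Ratios between members do not depend on a scaling that divides a library by 1 factor (quantile normalization is not of that kind), and in these libraries MYC was lower relative to MAX and to MXD4 after PDS. The ratio of MYC to MAX in TPM was 12.001 and 12.3 in the mock and 8.84 and 9.05 in the PDS libraries. That of MYC to MXD4 was 3.97 and 4.02 in the mock and 2.002 and 2.12 in the PDS libraries. Both ratios were lower in both PDS libraries, by a factor of 0.737 for MAX and 0.515 for MXD4, PDS over mock. MYC to the sum of its 6 competitors, MXD1, MXD3, MXD4, MXI1, MNT and MGA, was 1.81 and 1.96 in the mock and 1.18 and 1.26 in the PDS libraries. Leaving out any 1 library moved that PDS to mock factor of 0.647 only between 0.623 and 0.674. The order was the other way for MGA, with a ratio of MYC to MGA of 38.7 and 36.1 in the mock and 50.6 and 52.7 in the PDS libraries. The ratios of MYC to MXD3 and to MNT overlapped between the groups. No p is given for these ratios, which were not part of the fit across genes and for which the exact permutation test has a smallest p of 0.333.

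**Figure D3:**
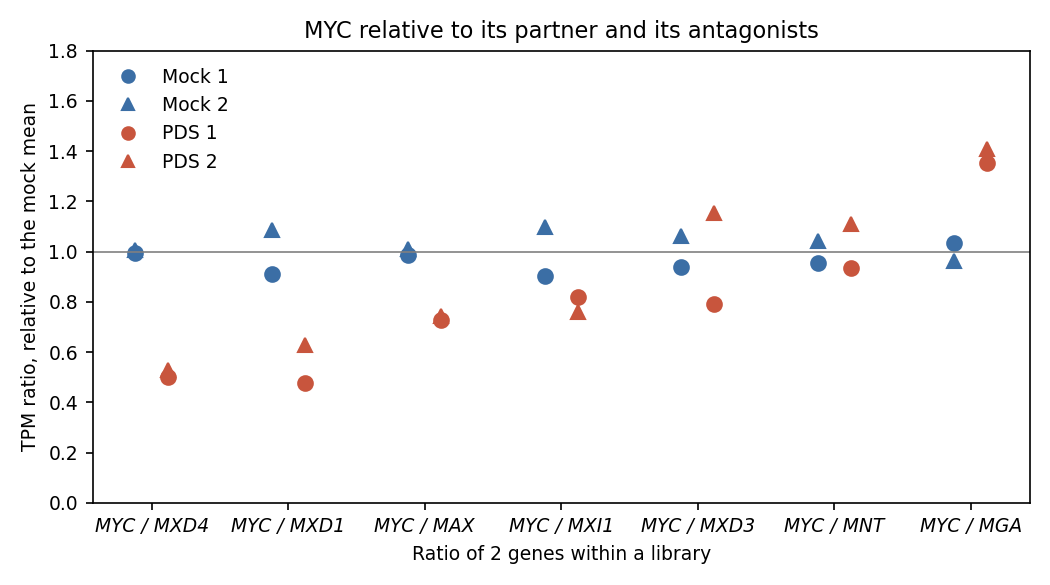
Ratio of the TPM of MYC to that of 7 other members within each library, relative to the mean of the 2 mock libraries (linear axis, points for single libraries). MYC over MXD4 is near 0.515 and MYC over MAX near 0.737 after PDS, MYC over MGA is near 1.38, and the ratios to MXD3 and MNT overlap with the mock values.

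Relative to MAX, its competitors split. MXD4 to MAX was 3.02 and 3.06 in the mock and 4.42 and 4.28 in the PDS libraries. MXD1 to MAX was 0.389 and 0.334 in the mock and 0.546 and 0.427 in the PDS libraries, higher in both. MGA to MAX went the other way, from 0.310 and 0.341 to 0.175 and 0.172. MNT to MAX and MXD3 to MAX were also lower in both PDS libraries (0.724 and 0.780, PDS over mock), and MXI1 to MAX overlapped.

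As a share of the summed TPM of the 10 genes, MYC took 61.6% ± 1.17 in the mock and 51.5% ± 1.19 in the PDS libraries (SD, n = 2 each). MXD4 took 15.3% and 15.5% in the mock and 25.3% and 24.7% in the PDS libraries. The 4 genes MXD1, MXD3, MXD4 and MXI1 together took 28.6% ± 1.19 and 39.2% ± 0.907. MAX took 5.07% ± 0.0102 and 5.75% ± 0.0358, and MGA 1.65% ± 0.114 and 0.997% ± 0.00651. The sum itself was 309 and 321 TPM in the mock and 204 and 209 TPM in the PDS libraries. These are shares of RNA corrected for gene length and say nothing of protein levels, which were not measured.

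**Figure D4:**
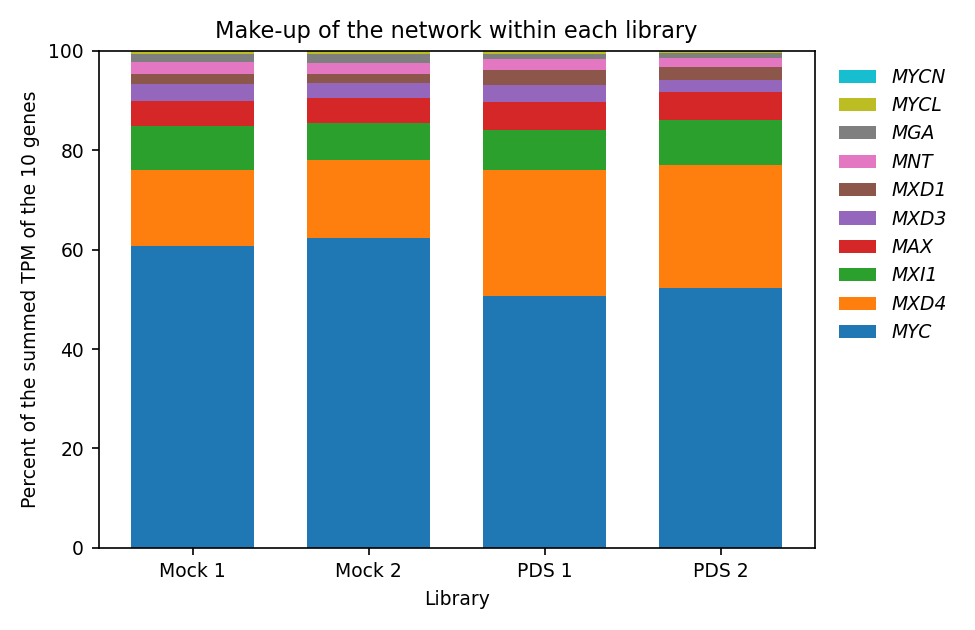
Stacked bars of each member's percent of the summed TPM of the 10 network genes in each library. The MYC block covers 60.8% and 62.4% in the mock and 50.6% and 52.3% in the PDS libraries, and the MXD4 block 15.3% and 15.5% against 25.3% and 24.7%.

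Around the network, 9 textbook lists of 120 genes were described in the same fit. They were chosen with earlier results of these data known, so their counts describe these data and give no independent support. Of the 112 tested, 5 were higher and 34 lower, beside 16.2% and 13.0% of all genes. The related MLX arm senses glucose through the activators MLXIP and MLXIPL, which pair with MLX. MLXIPL, also called ChREBP, fell from 91.5 and 91.2 TPM to 42.4 and 40.8 TPM (log2 fold change -0.48, limma adjusted p = 0.00752), and MLXIP fell as well (-0.31, adjusted p = 0.0464). MLX (0.19), TXNIP (0.27) and ARRDC4 (0.20), the last 2 being targets of that arm, did not pass, and were at -0.44, -0.37 and -0.32 with TPM as deposited. MLX and TXNIP passed as higher with voom (adjusted p = 0.0329 and 0.00663) and with the filter of 5 TPM (adjusted p = 0.0441 and 0.0293). Of the 10 genes that neighbour the MYC genes, 2 were tested and 0 passed in this fit, the noncoding PVT1 (0.23, and -0.15 with TPM as deposited) and the helicase DDX1 (-0.24). Their limma adjusted p-values were 0.294 and 0.0658, and DDX1 was the 1 of them with an unadjusted p under 0.05. With voom both passed, PVT1 as higher (0.38, adjusted p = 0.0133) and DDX1 as lower (-0.24, adjusted p = 0.0117), and DDX1 also passed with quantile normalization and with the filter of 5 TPM. The others, CASC11, CASC8, PCAT1, POU5F1B, MYCNOS, MYCNUT and MYCL-AS1, lay under 1 TPM, MYCNUT was at 0 in all 4 libraries, and CCAT1 was not matched.

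Among 14 cofactors that MYC uses at chromatin, 6 were lower and 0 higher, beside 13.0% and 16.2% of all genes, with a median log2 fold change of -0.24. With voom 8 were lower and 2 higher, beside 19.2% and 20.3% of all genes. With TPM as deposited all 14 were lower, beside 71.8% of all genes. With the filter of 5 TPM 7 were lower and 2 higher, beside 2044 and 2315 of 9649 genes. The NuA4 subunit EP400 fell from 10.02 and 10.1 TPM to 3.43 and 3.76 TPM (log2 fold change -0.72, limma adjusted p = 0.00866). HCFC1 (-0.47), TRRAP (-0.44) and RUVBL2 (-0.37) were lower too. Against the median of each gene's own decile of exon length, 12 of the 14 lay below and 2 above, with a median difference of -0.15. EP400 and TRRAP lie in the longest decile, where 28.3% of genes were called lower. Of 10 genes that act on MYC protein stability, 4 were lower and 0 higher, beside 13.0% and 16.2% of all genes, with a median of -0.22. With voom 6 were lower and 0 higher, beside 19.2% and 20.3% of all genes. With TPM as deposited all 10 were lower, beside 71.8% of all genes. With the filter of 5 TPM 6 of 9 were lower and 0 higher, beside 2044 and 2315 of 9649 genes. SKP2, a ubiquitin ligase subunit, fell from 13.6 and 16.1 TPM to 4.86 and 4.70 TPM (log2 fold change -0.88, limma adjusted p = 0.00695). HUWE1 (-0.54), CIP2A (-0.37) and the kinase AURKA (-0.24) fell too. Against the decile medians of exon length, 7 of these 10 genes lay below and 3 above, with a median difference of -0.14. SKP2 and HUWE1 also lie in the longest decile. The part of exon length in both lists was not tested.

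Of 14 genes of the SIN3 and histone deacetylase complexes that MXD proteins recruit, SIN3A (-0.45) and HDAC2 (-0.26) fell and BRMS1 rose (0.45, and -0.18 with TPM as deposited), with a median of -0.08. Of 12 genes of the Polycomb-type complex built on MGA, PCGF6 (-0.29) and HDAC2 fell and RING1 rose (0.23, and -0.41 with TPM as deposited), with a median of -0.03. Of 7 proteins known to bind the G-rich element of the MYC promoter, 2 fell, SP1 (-0.50) and nucleolin, NCL (-0.45), and the median was -0.11. HDAC1 and HDAC2 are members of both of the first lists, and WDR5 is in the MGA list and among the cofactors. NCL and NME1 are also listed among the genes that MYC is known to activate, so NCL is counted as lower in both lists. Of the SIN3, MGA and promoter lists, in that order, 14.3%, 16.7% and 28.6% were lower and 7.14%, 8.33% and 0.0% higher. Over all genes 13.0% were lower and 16.2% higher, so the first 2 lists had shares of lower genes near the background.

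Genes that MYC is known to activate were lower more than they were higher. Of 45 tested genes of 46 listed (CCND2 had too few reads), 18 or 40.0% fell and 0 rose, beside 13.0% and 16.2% of all genes. The median log2 fold change was -0.15. That background includes many low genes, which few of the listed genes are. With the filter of 5 TPM, 18 of 44 fell and 0 rose, beside 2044 and 2315 of 9649 genes. The same list had 26 lower genes with quantile normalization, 44 with TPM as deposited and 18 with voom. Over all genes 16.0%, 71.8% and 19.2% were lower in these settings. Leaving out 1 library moved the median log2 fold change of the list between -0.19 (without PDS 2) and -0.12 (without PDS 1). UTP20 (-0.73) and NOLC1 (-0.65) act in ribosome assembly, POLR1B (-0.65) is a subunit of RNA polymerase I, and CAD (-0.65) starts pyrimidine synthesis. NOLC1 went from 153 and 178 TPM to 66.8 and 67.0 TPM, and POLR1B from 24.1 and 27.0 TPM to 10.1 and 10.05 TPM. Against the median of the genes in its own decile of exon length, 36 of the 45 lay below, with a median difference of -0.20.

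Of 8 genes that MYC is known to repress, 3 rose and 0 fell, beside 16.2% and 13.0% of all genes, with a median of 0.20. The count was 2 higher and 4 lower with TPM as deposited (median -0.43), beside 2.58% and 71.8% of all genes. It was 4 and 2 with voom (20.3% and 19.2% of all genes) and 2 and 0 with quantile normalization (12.6% and 16.0%). With the filter of 5 TPM it was 2 and 1, beside 2315 and 2044 of 9649 genes. The cyclin-dependent kinase inhibitor CDKN1A had 58.9 and 55.0 TPM in the mock and 92.2 and 92.4 TPM in the PDS libraries, a log2 fold change of 1.33 (limma adjusted p = 0.00290). CDKN2B, of the same function, rose from 1.90 and 1.803 TPM to 3.79 and 2.56 TPM (0.99), and GADD45A, a stress gene, passed at 0.45 but stood at -0.19 with TPM as deposited. The 8 genes divided evenly by sign, 4 positive and 4 negative. Other regulators act on these genes too, and the part of MYC in these values was not tested.

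**Figure D5:**
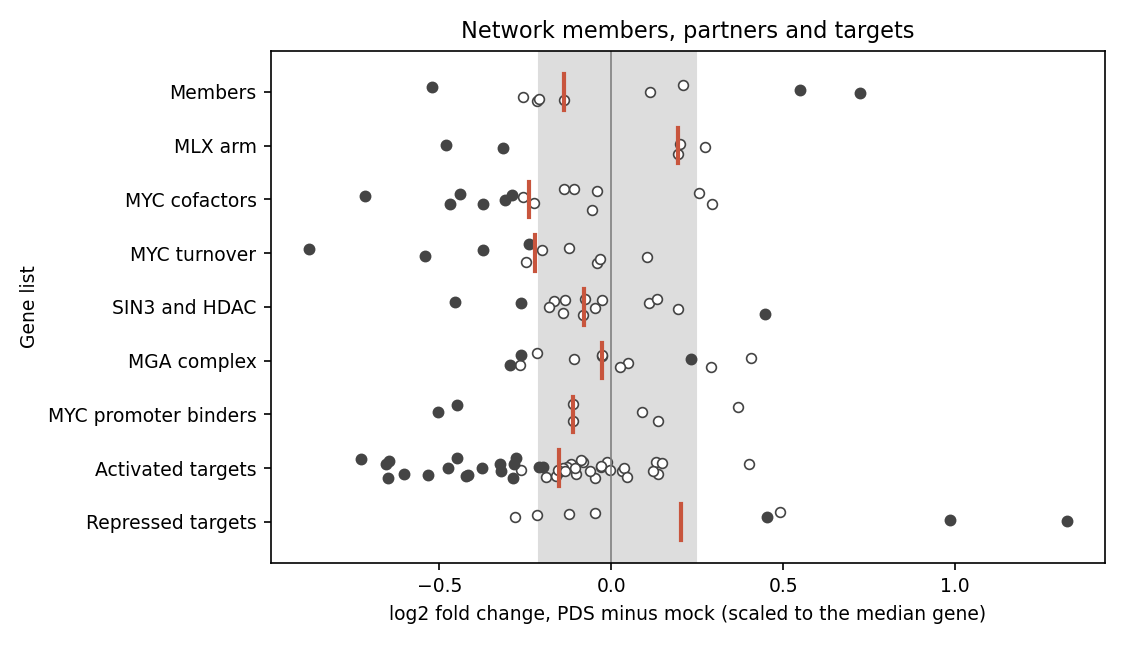
The log2 fold change (PDS minus mock, scaled to the median gene) of the 9 tested members and of the genes in 8 of the lists (not the neighbours), 1 point per gene, filled for an adjusted p under 0.05, with a red bar at the median and a grey band over the middle 50% of all genes (-0.21 to 0.25). The medians are -0.14 for members, -0.24 for MYC cofactors, -0.15 for activated targets and 0.20 for repressed targets.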

How the data were processed

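RNA of 2 mock and 2 PDS libraries was enriched for poly(A) and sequenced. The authors aligned reads to GRCh38 with STAR (2.7.0), ran featureCounts (2.0.3) and took DESeq2 (1.36.0) for differential expression. The annotation release, counting strand and formula for TPM are not given in the sources used here. Values as deposited are TPM (an expression signal corrected for length), beside group averages that were not tested. Rows without an identifier (2, holding totals) and repeated ones (2, without expression) were left out. Symbols came from GENCODE 44, where 61803 of 61906 identifiers matched with the version left aside. Its exon lengths were used to recover reads where the version matched too, for 59984 identifiers. The reads summed per library cover only these and leave out genes such as MYC.

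Median-of-ratios factors (1.23 and 1.27 for mock, 0.806 and 0.793 for PDS) scaled the libraries. Genes averaging 1 TPM or more were tested on log2(scaled TPM + 1), a scale that understates changes of low genes, with limma (3.58.1, R 4.3.3), a mean-variance trend, Benjamini-Hochberg adjustment over 14686 genes, two-sided, at 0.05. Adjusted p-values are from this fit unless another is named. TPM times exon length gave whole reads within 0.05 for at least 99.89% of values up to 1000 reads, and limma's voom on these was an alternative. For MYC, MYCL, MAX and MGA, whose identifier version differed, the length was solved from the 4 libraries (MYC had 2 candidate lengths). A trial on 2000 genes of known length returned that length for 99.55%. It used better covered genes than MYCL and starting lengths closer to the true one than that of MYC. The solved length of MYC was 4584 bases, against 6109 in GENCODE 44. Of 707 expressed genes tried whose identifier version differed, 574 were solved. The read numbers of MYC and MYCL are thus less certain than the trial shows. The main limma fit and the voom fit were also run on simulated data with a small set of genes changed in both directions. That simulation held no shared shift of most genes, so it does not bear on the choice of scaling.

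The members and lists were chosen with earlier results of these data known, and 1 gene of the protein stability list is not reported here. All members are named, with all genes of the MLX and neighbour lists and, of each other list, up to 4 genes past the threshold by size of change. Alternatives were the scaling, the pseudocount (0.5 and 0.1), the filter (5 TPM and none), the replicate block and each library left out.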

Additional observations from a re-analysis of the deposited data

How the results depend on the processing

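Relative to the 4283 genes, 3 members and 39 list genes called, TPM as deposited gave 10917, 7 and 103, and no filter on low values gave 0, 0 and 0 by limma (7600 genes, 5 members and 63 list genes at an unadjusted p under 0.05). The voom fit called 5 members. Leaving out 1 library gave 0 to 2321 genes, 0 to 2 members and 0 to 23 list genes, with 0 of each without Mock 1 (unadjusted p under 0.05 for 4635, 4 and 44) and without Mock 2 (4117, 2 and 34). The split of calls moved too, from 2377 higher and 1906 lower to 379 and 10538 with TPM as deposited and to 1856 and 2343 with quantile normalization. The cause was not tested.

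With the replicate block 2817 genes, 2 members and 23 list genes were called. Mock 1 minus Mock 2 did not vary with PDS 1 minus PDS 2 (correlation -0.03 across 14686 genes, which are not independent). Only 2 pairs exist, so this value cannot show whether libraries of the same number were made together. The labels do not say so, and the numbers are used here only to name libraries.

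Directions turned for MAX (-0.40), MXD1 (-0.00128), MXI1 (-0.51), MLX (-0.44), ARRDC4 (-0.32), TXNIP (-0.37), PVT1 (-0.15), BRMS1 (-0.18), RING1 (-0.41) and GADD45A (-0.19) with TPM as deposited, and for MXI1 with no filter (-0.0288). Leaving out 1 library moved MXI1 from -0.000918 (without Mock 2) to 0.220 (without Mock 1) and MXD3 from -0.333 (without PDS 1) to 0.0540 (without PDS 2). Over all named genes and alternatives, 302 values kept direction and call, 119 lost the call, 17 gained it and 13 turned. The pseudocounts changed no call. The ratios between members, left out by library after the data were seen, moved by less than their spread. MYCN, with 2 to 5 reads per library, and MYCL, with 32 reads in each PDS library, are limited by depth.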
